A study of Mus musculus with 6 samples.

Results

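Genes of the proteasome were examined in mice with a knockout of N-Me, a NOTCH1-bound enhancer of Myc, which encodes a growth-promoting transcription factor. Members were the probes of the Illumina bead array whose gene symbol starts with Psma, Psmb, Psmc, Psmd, Psme, Psmf or Psmg followed by a digit, leaving out the immunoproteasome genes Psmb8, Psmb9 and Psmb10. This took in 81 of 45281 probes and 46 of 19057 genes with a single symbol. They are 14 subunits of the catalytic core, 17 subunits of the regulatory cap, 7 assembly factors, 4 activators, the tissue-restricted core subunits Psma8 and Psmb11, and 2 further genes, Psmc3ip and Psme3ip1, whose symbols match but whose products are not proteasome subunits. Psmc3ip acts in meiotic recombination, and Psme3ip1 binds the activator encoded by Psme3.

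Total RNA came from 3 mice labelled N-Me knockout (KO) and given tamoxifen in corn oil at 3 mg/kg, and from 3 mice labelled N-Me wild type (WT) and given corn oil only. Both solutions were injected into the peritoneum, all mice were of the C57 BL6 strain, and they were processed 40 h after injection. The knockout is described as conditional; the sources used here do not give the recombinase, the tissue, or the age and sex of the mice. Genotype and treatment changed together, so the deletion and the drug cannot be told apart in any difference below. The labels call the mice biological replicates, with 1 array each.

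The proteasome is the protease that breaks down proteins tagged with ubiquitin. Its barrel-shaped core is built from alpha rings, which gate the entrance, and beta rings, which hold the catalytic sites. A regulatory cap sits on the barrel: its base carries a ring of ATPases that unfold the substrate, and its lid removes the ubiquitin. Dedicated chaperones assemble the core and the base and are not part of the finished particle, and alternative activators such as PA28 and PA200 can take the place of the cap. In lymphocytes the standard catalytic subunits are partly replaced by those of the immunoproteasome.

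Of the 39 members that were tested, 3 were lower in KO and 0 were higher (limma, Benjamini-Hochberg adjusted p under 0.05). Over all 10209 tested genes, 17.1% were lower and 19.7% were higher at this threshold. The 3 lower genes were Psmg1, an assembly chaperone of the core, Psmb1, a non-catalytic beta ring subunit, and Psmd2, a scaffold subunit of the base. At an unadjusted p under 0.05, 8 members (20.5%) were lower and 0 higher, beside 22% and 24.8% of all tested genes. The count of lower members was 7 (17.9%, beside 18.2% of all tested genes) with no background correction and likewise with the deposited log2 table, so the share of lower members was then near that of all genes. It was 5 without KO replicate 2 (12.8%, beside 14.5%) and 1 without WT replicate 1 (2.56%, beside 11.2%). For 31 of the 39 the unadjusted 95% interval of the difference lay within 1.5-fold in either direction. Myc, the check of the labels, read 7.42, 6.95 and 7.11 in KO mice, against 8.95, 8.75 and 9.04 in WT mice, a log2 fold change of -1.75 ± 0.16 (SE) with an adjusted p of 0.000406. All levels are normalised log2 signals, and fold changes are KO minus WT on that scale. Signals were quantile normalised, so higher and lower are relative to the bulk of the probes. In bulk RNA, fewer cells of a type and less RNA per cell cannot be told apart. All of the 39 tested members were detected on all 6 arrays. The other 7 (Psma1, Psma3, Psma6, Psmd3, Psmg4, Psma8 and Psmb11) did not pass the filter, which asks for a detection p under 0.05 on at least 3 arrays.

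**Figure D1:**
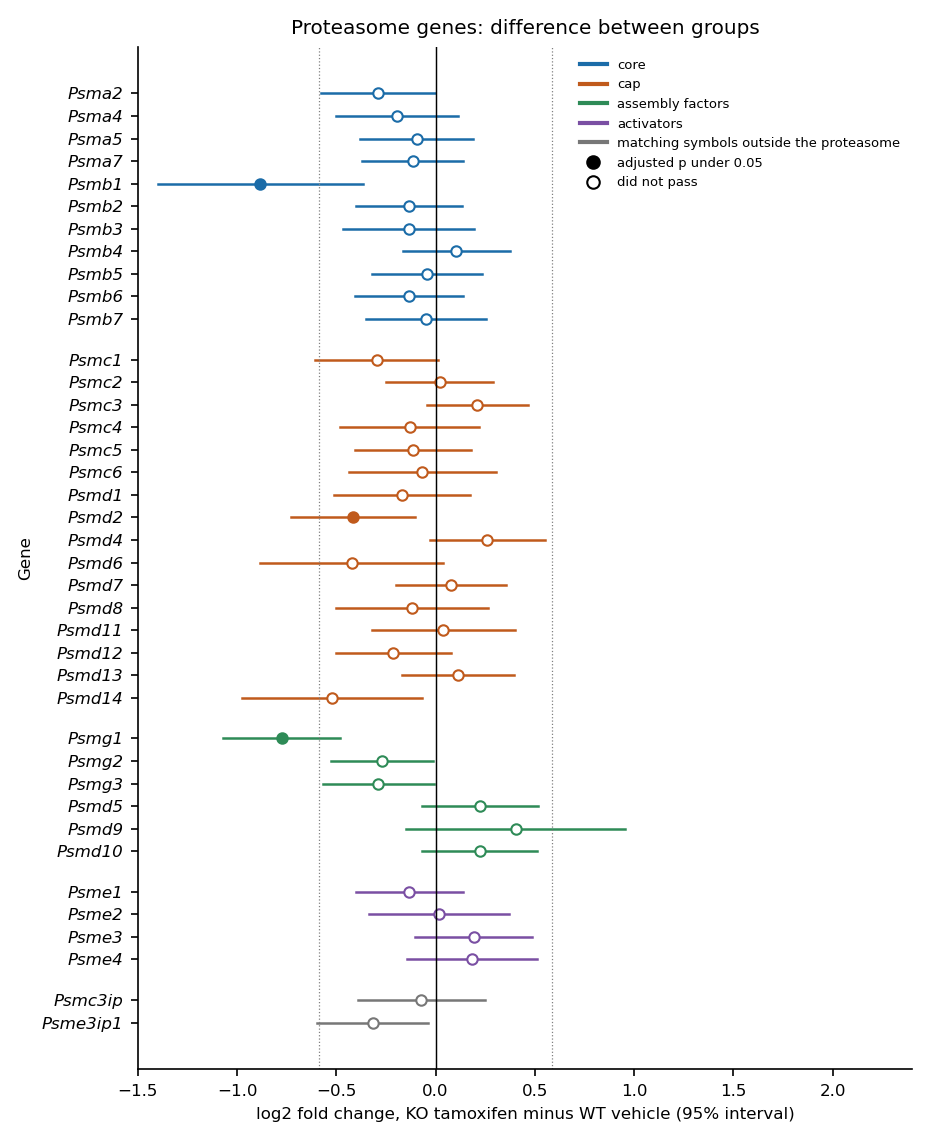
Log2 fold change (KO tamoxifen minus WT vehicle) of each of the 39 tested members with its unadjusted 95% interval, grouped by class, with filled points for adjusted p under 0.05. Dotted lines mark a 1.5-fold difference in either direction, and Psmb1, Psmd2 and Psmg1 are the filled points.

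Among the core genes 11 of 14 were tested, 1 was lower in KO (9.09%) and 0 were higher, beside 17.1% and 19.7% of all tested genes. Their median log2 fold change was -0.13, set beside 0.0011 over all tested genes. Of the 11 values 10 were below 0, beside 49.9% of all tested genes. Psmb1 read 10.32, 9.91 and 9.47 in KO mice, against 11.05, 10.51 and 10.79 in WT mice. The groups did not overlap, and KO replicate 3 was the lowest of the 6 mice. Its means were 9.90 ± 0.43 in KO mice and 10.79 ± 0.27 in WT mice (SD, n = 3 each), a difference of -0.88 ± 0.23 (SE), or 1.84-fold lower in KO, with an adjusted p of 0.0165 by limma. This call ended when WT replicate 1 was left out (-0.75, adjusted p = 0.0636), and when WT replicate 3 was left out (-0.87, adjusted p = 0.0550). Psmb1 had the largest spread among KO mice of the core genes and is represented by 1 probe.

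The 4 tested alpha ring genes lay between -0.29 and -0.10. Psma2 read 13.98, 13.81 and 13.74 in KO mice, against 14.16, 14.03 and 14.20 in WT mice, and all 3 KO values lay below all 3 WT values. The difference of -0.29 ± 0.13 (SE) did not pass (adjusted p = 0.101), but it did with no background correction, with the deposited log2 table, with trend and robust eBayes, and when arrays were scaled to a common median, with adjusted p down to 0.0133. Psma7 read 12.24, 12.21 and 12.21 in KO mice, against 12.31, 12.37 and 12.32 in WT mice, also without overlap, at -0.11 ± 0.11 (adjusted p = 0.451). Psma4 and Psma5 were at -0.19 ± 0.13 and -0.10 ± 0.12, and their groups overlapped. The single probes of Psma1, Psma3 and Psma6, subunits of the same ring, were not detected on any array. Psma1 had raw intensities of 104.0, 116.8 and 109.7 in KO mice, against 110.7, 115.3 and 112.3 in WT mice. Psma3 had raw intensities of 113.6, 120.6 and 117.8 in KO mice, against 105.4, 127.8 and 119.1 in WT mice. Psma6 had raw intensities of 108.2, 113.7 and 105.6 in KO mice, against 108.7, 106.1 and 108.9 in WT mice. No difference could be measured for these genes.

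The catalytic beta subunits did not pass the test. Psmb5, which carries the chymotrypsin-like activity, read 10.55, 10.64 and 10.47 in KO mice, against 10.71, 10.59 and 10.50 in WT mice, a difference of -0.04 ± 0.12 (SE) with a 95% interval of -0.32 to 0.23. Psmb6, the caspase-like subunit, read 12.22, 12.30 and 12.40 in KO mice, against 12.42, 12.51 and 12.39 in WT mice, at -0.13 ± 0.12 with an interval of -0.40 to 0.14. Psmb7, the trypsin-like subunit, read 12.33, 12.61 and 12.68 in KO mice, against 12.60, 12.58 and 12.59 in WT mice, at -0.05 ± 0.13 with an interval of -0.35 to 0.25. In each of these genes KO and WT mice overlapped, and KO replicate 1 was the lowest of the 6 for Psmb6 and Psmb7. The other beta ring genes Psmb2, Psmb3 and Psmb4 were at -0.13 ± 0.12, -0.14 ± 0.14 and 0.11 ± 0.12. Psmb4 was the only tested core gene with a value above 0, and it did not pass (adjusted p = 0.518).

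In the cap 16 of 17 genes were tested, 1 was lower in KO (6.25%) and 0 were higher, beside 17.1% and 19.7% of all tested genes. Their median log2 fold change was -0.12, and 10 of the 16 values were below 0, beside 49.9% of all tested genes. The 6 ATPase genes of the base had a median of -0.09 and none passed. Psmc1 read 11.03, 11.39 and 11.29 in KO mice, against 11.43, 11.60 and 11.56 in WT mice, all KO values below all WT values, at -0.30 ± 0.14 (adjusted p = 0.121). Psmc3 was placed the other way, with 12.39, 12.41 and 12.34 in KO mice, against 12.15, 12.19 and 12.16 in WT mice, at 0.21 ± 0.11 (adjusted p = 0.173). Psmc2, Psmc4, Psmc5 and Psmc6 lay between -0.13 and 0.02, and their groups overlapped. The signal of Psmc6 was dim, at means of 5.74 in KO and 5.81 in WT.

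Psmd2, one of the large scaffold subunits of the base, read 6.50, 6.67 and 6.40 in KO mice, against 6.99, 7.07 and 6.77 in WT mice. The KO and WT values did not overlap, but the signal was dim, with raw intensities of 177.7, 226.4 and 187.8 in KO and 224.8, 239.3 and 205.5 in WT. The difference was -0.42 ± 0.14 (SE), or 1.33-fold lower in KO, with an adjusted p of 0.0419. It lost its call under 9 of 14 alternative settings, with adjusted p up to 0.148. Among them were no background correction, which brought the value to -0.21, the mean of its 2 detected probes (-0.28), and leaving out KO replicate 1 (-0.41), KO replicate 3 (-0.36), WT replicate 1 (-0.39) or WT replicate 2 (-0.35). Psmd1, the other large scaffold subunit, was at -0.17 ± 0.15 (adjusted p = 0.41).

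The lid and the ubiquitin-binding subunit showed values on both sides of 0. Psmd14, the deubiquitinase of the lid, read 10.06, 10.84 and 10.32 in KO mice, against 10.91, 11.08 and 10.80 in WT mice. KO replicate 2 lay among the WT values and the other KO mice below them. The difference of -0.52 ± 0.20 (SE) did not pass (adjusted p = 0.0687), and it passed under 6 of 14 alternative settings, among them without KO replicate 2 (-0.75, adjusted p = 0.0125) and when its probes were averaged (-0.61, adjusted p = 0.0386). Psmd4, which binds ubiquitin chains, read 13.36, 13.09 and 13.10 in KO mice, against 12.98, 12.91 and 12.88 in WT mice. Its KO values all lay above its WT values, at 0.26 ± 0.13 (adjusted p = 0.142). Psmd12, a lid subunit, lay lower in each KO mouse than in any WT mouse, at -0.21 ± 0.13 (adjusted p = 0.224). The other lid genes were Psmd6 at -0.42 ± 0.20, Psmd7 at 0.08 ± 0.12, Psmd8 at -0.12 ± 0.17, Psmd11 at 0.04 ± 0.16 and Psmd13 at 0.11 ± 0.12, and none of them passed. Psmd6 passed when its probes were averaged (-0.39, adjusted p = 0.0285) and without KO replicate 2 (-0.62, adjusted p = 0.0364). Psmd3, a lid subunit, was not detected on any array, and its brighter probe had raw intensities of 105.4, 115.6 and 109.0 in KO mice, against 120.4, 113.6 and 110.1 in WT mice.

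Of the 7 assembly genes 6 were tested, 1 was lower in KO (16.7%) and 0 were higher, beside 17.1% and 19.7% of all tested genes. Their median log2 fold change was -0.03, and the genes of the core chaperones and of the base chaperones lay on opposite sides of 0. Psmg1, which pairs with the Psmg2 product to guide the alpha ring, read 10.13, 9.97 and 10.09 in KO mice, against 10.96, 10.89 and 10.67 in WT mice. All 3 KO mice lay below all 3 WT mice, and the KO values were close together. Its means were 10.06 ± 0.08 in KO mice and 10.84 ± 0.15 in WT mice (SD, n = 3 each), a difference of -0.78 ± 0.13 (SE), or 1.71-fold lower in KO, with an adjusted p of 0.00295. The call of Psmg1 held in all 14 alternative settings, with values of -0.71 to -0.89 and adjusted p up to 0.0155.

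Psmg2 read 10.75, 10.79 and 10.85 in KO mice, against 11.10, 11.02 and 11.09 in WT mice. Psmg3, which works as a pair with the Psmg4 product, read 10.02, 9.82 and 10.01 in KO mice, against 10.33, 10.22 and 10.17 in WT mice. In both genes the groups did not overlap, at -0.27 ± 0.11 (adjusted p = 0.0904) and -0.29 ± 0.12 (adjusted p = 0.0964). Neither passed here. Both passed with no background correction and with the deposited log2 table, with adjusted p down to 0.0355 for Psmg2 and 0.0486 for Psmg3, and Psmg2 also passed with no filter on dim probes. The probe of Psmg4 was not detected on any array, with raw intensities of 105.6, 111.1 and 114.1 in KO mice, against 125.8, 118.5 and 113.3 in WT mice.

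The base chaperones Psmd5, Psmd9 and Psmd10, which escort the ATPases into their ring, had values above 0 and none passed. Psmd5 read 8.91, 8.59 and 8.81 in KO mice, against 8.59, 8.55 and 8.50 in WT mice, the lowest KO value just above the highest WT value, at 0.22 ± 0.13 (adjusted p = 0.205). Psmd10, also known as gankyrin, read 10.89, 11.09 and 11.16 in KO mice, against 10.90, 10.77 and 10.79 in WT mice, at 0.22 ± 0.13 (adjusted p = 0.202). KO replicate 1 lay below WT replicate 1 there, and the other KO mice lay above all WT mice. Psmd9 read 7.65, 8.30 and 8.73 in KO mice, against 7.88, 7.86 and 7.73 in WT mice, so KO replicate 1 was the lowest of the 6 mice and the other KO mice the highest. Its difference was 0.40 ± 0.24 (adjusted p = 0.223), but 0.69 (adjusted p = 0.0120) without KO replicate 1 and 0.15 without KO replicate 3. The median was -0.29 for the 3 core chaperones and 0.22 for the 3 base chaperones, and no test of that difference was made.

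**Figure D2:**
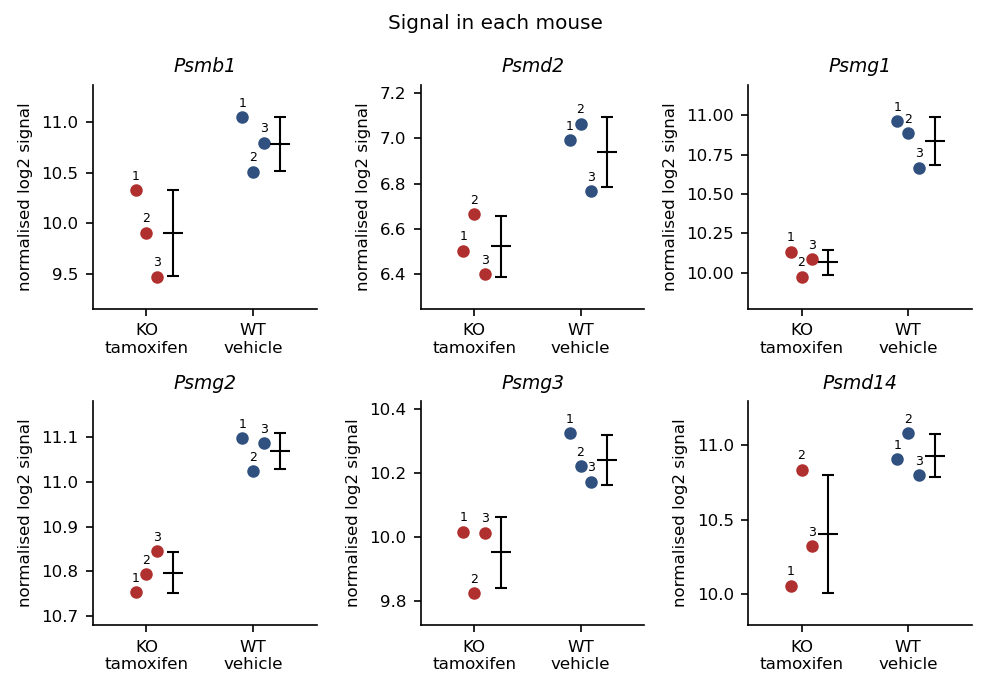
Normalised log2 signal of 6 members in each mouse, KO tamoxifen left and WT vehicle right, with replicate numbers at the points and the mean ± SD (n = 3) beside them. KO and WT mice do not overlap for Psmb1, Psmd2, Psmg1, Psmg2 and Psmg3, whereas KO replicate 2 lies among the WT mice for Psmd14.

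Genes of the activators had a median of 0.10 over 4 tested, and none passed. Psme1 and Psme2 encode the subunits of PA28 that interferon induces. Psme1 read 13.25, 13.35 and 13.14 in KO mice, against 13.33, 13.41 and 13.40 in WT mice, at -0.13 ± 0.12 (SE), with overlap between the groups. Psme2 read 8.48, 8.71 and 8.97 in KO mice, against 8.80, 8.76 and 8.55 in WT mice, at 0.02 ± 0.16 with a 95% interval of -0.34 to 0.37. A near-identical gene copy, Psme2b, can share its probe, so the Psme2 value is uncertain. Psme3, the nuclear form of PA28, read 12.56, 12.60 and 12.81 in KO mice, against 12.34, 12.53 and 12.53 in WT mice, with all KO values above all WT values, at 0.19 ± 0.13 (adjusted p = 0.276). Psme4, which encodes PA200, was at 0.19 ± 0.14 (adjusted p = 0.343). Of the genes that match by symbol alone, Psmc3ip was at -0.07 ± 0.14 and Psme3ip1 at -0.32 ± 0.12 (adjusted p = 0.071). Psme3ip1 passed in 4 of 14 alternative settings, with adjusted p from 0.03 to 0.22 over all of them. Psmf1, which encodes a proteasome inhibitor, was not analysed here.

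The tissue-restricted core subunits were at or near background. Psmb11, the catalytic subunit of the thymoproteasome in cortical epithelial cells of the thymus, had raw intensities of 143.5, 128.7 and 134.5 in KO mice and 132.5, 126.3 and 135.6 in WT mice. It was detected on 1 KO array and on 0 WT arrays, so no fold is given. Psma8, the alpha subunit of the proteasome in male germ cells, had raw intensities of 130.6, 148.8 and 152.7 in KO and 128.0, 141.2 and 128.6 in WT for its brighter probe. That probe was detected on 2 KO arrays and on 0 WT arrays. The KO mean was 1.04-fold the WT limit, taken as the higher of the probe's own signal and the lowest detected signal on each array. This mean takes in KO replicate 1, which lay below the lowest detected signal on its array, so 1.04 is not a lower bound. For the dimmer probe, detected on 1 KO array and on 0 WT arrays, the figure was 0.846. Neither gene was tested.

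Set side by side, the class means of the core and of the activators did not overlap between the groups, and those of the cap and the assembly genes did. Over its 11 genes the core averaged 12.55, 12.52 and 12.50 in KO mice, against 12.77, 12.67 and 12.68 in WT mice. The cap averaged 10.95, 11.06 and 10.89 in KO mice, against 11.11, 11.11 and 11.01 in WT mice, where KO replicate 2 lay above WT replicate 3. The assembly genes averaged 9.72, 9.76 and 9.94 in KO mice, against 9.96, 9.89 and 9.82 in WT mice, with KO replicate 3 within the WT range. The activators averaged 11.56, 11.63 and 11.62 in KO mice, against 11.52, 11.55 and 11.56 in WT mice, so that the lowest KO value lay just above the highest WT value. The mean over all tested genes was likewise higher in every KO mouse, at 8.781, 8.777 and 8.788 in KO mice, against 8.745, 8.762 and 8.745 in WT mice. When arrays were scaled to a common median instead of quantile normalised, the medians were -0.29 for the core, -0.26 for the cap, -0.15 for assembly genes and 0.00168 for activators, beside -0.05 over all tested genes. When Psmd5, Psmd9 and Psmd10 were counted with the cap by their symbols, the cap median was -0.07 and that of the remaining 3 assembly genes -0.29.

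Intervals lying close to 0 were more frequent among the members than among all tested genes. Such counts depend on the distance of a value from 0 as well as on the width of its interval. An interval within 1.5-fold, found for 31 of the 39 members, held for 36.5% of all tested genes. For 37 of the 39 it lay within 2-fold, the exceptions being Psmb1 and Psmg1, and this held for 74.5% of all tested genes. Values below 0 were found for 26 of the 39 members, beside 49.9% of all tested genes. Members were brighter than most genes, at a median mean signal of 11.88, beside 8.74 over all tested genes. Among the 3217 tested genes with a mean signal of at least 10, a level chosen after the values were seen, 17% were lower and 18% higher in KO and 48.9% had an interval within 1.5-fold. Of the 32 members at this level, 2 were lower, 0 were higher, and 27 had an interval within 1.5-fold. Groups did not overlap for 10 members with lower and 4 with higher values in KO, while over all tested genes this held for 24.4% and 26.1%.

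**Figure D3:**
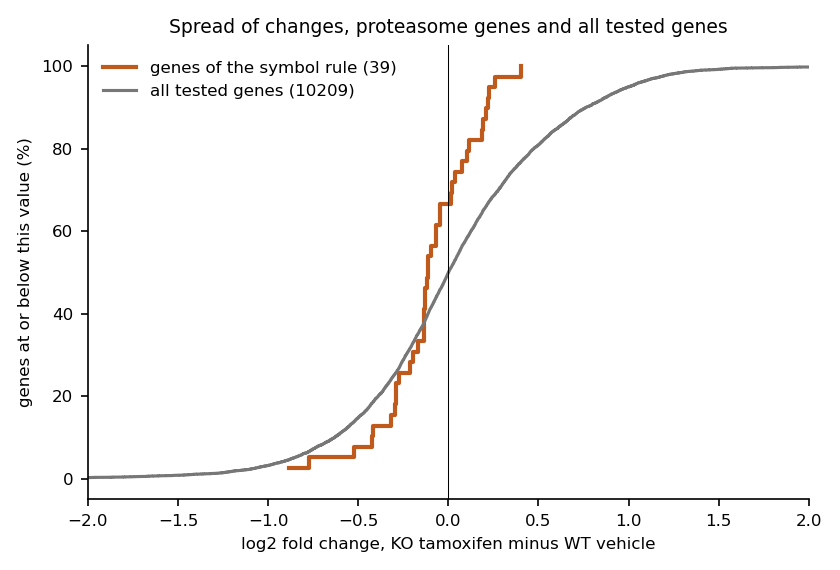
Share of genes (%) at or below each log2 fold change (KO tamoxifen minus WT vehicle), for the 39 tested members and for all 10209 tested genes, shown from -2 to 2. The members span -0.88 to 0.40, and 26 of the 39 lie below 0.

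Probes of the same gene were also set side by side. Tested probe by probe among 19082 detected probes, of which 16.5% were lower and 15.7% higher in KO, 4 of 64 member probes were lower and 0 were higher. They were the probes of Psmb1 and Psmg1, the dimmer probe of Psmd14 at -0.69 ± 0.21 (SE, adjusted p = 0.0333) and the dimmest of 3 Psmd7 probes at -0.68 ± 0.16 (adjusted p = 0.0122). The brighter Psmd7 probes were at 0.08 ± 0.13 and -0.20 ± 0.12, so the probes of this lid gene disagreed. The Psmd2 probe did not pass in this test (adjusted p = 0.0523), and its second probe was at -0.15 ± 0.16. The 3 Psmg2 probes were at -0.27 ± 0.12, -0.29 ± 0.17 and -0.47 ± 0.20, and those of Psmd10 at 0.22 ± 0.13, 0.10 ± 0.13 and 0.32 ± 0.16, each set on 1 side of 0. Of 19 members with more than 1 detected probe, 4 (Psmb7, Psmd7, Psmd11 and Psme4) had probes on both sides of 0.

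**Figure D4:**
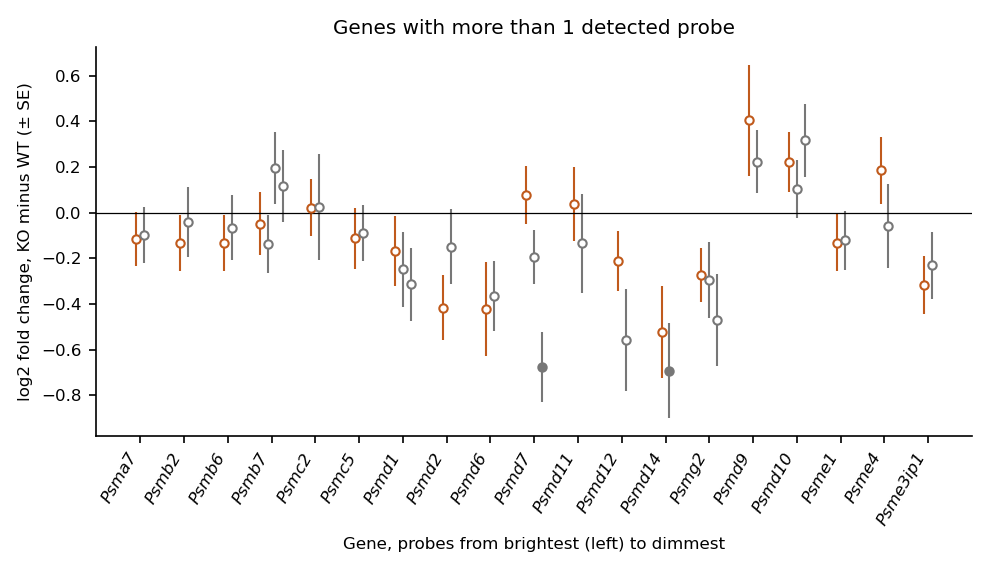
Log2 fold change ± SE of every detected probe of the 19 members with more than 1, ordered from the brightest probe of each gene, with the probe that stands for the gene in orange and filled points for adjusted p under 0.05 among all detected probes. The dimmest Psmd7 probe and the dimmer Psmd14 probe are the filled points.

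The promoters of Psmd2 and Psmg1, the genes that passed in the cap and the assembly class, are shown as the windows in which motifs were looked for. They come from RefSeq on GRCm38.p6 and run from 250 bases before to 50 bases after the annotated start. The table has an entry for 38 of the 46 members, and Psmb1 is not among them. Psmd2 lies on the plus strand at chr16:20651402-20651701 and Psmg1 on the minus strand at chr16:95990911-95991210, both written 5′ to 3′ with matches to the motifs searched in capitals.
Psmd2: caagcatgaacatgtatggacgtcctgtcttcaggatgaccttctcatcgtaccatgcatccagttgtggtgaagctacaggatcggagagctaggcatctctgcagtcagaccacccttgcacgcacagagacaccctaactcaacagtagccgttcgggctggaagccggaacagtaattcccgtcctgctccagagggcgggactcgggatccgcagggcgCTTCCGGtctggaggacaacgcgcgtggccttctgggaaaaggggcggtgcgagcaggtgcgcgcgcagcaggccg
Psmg1: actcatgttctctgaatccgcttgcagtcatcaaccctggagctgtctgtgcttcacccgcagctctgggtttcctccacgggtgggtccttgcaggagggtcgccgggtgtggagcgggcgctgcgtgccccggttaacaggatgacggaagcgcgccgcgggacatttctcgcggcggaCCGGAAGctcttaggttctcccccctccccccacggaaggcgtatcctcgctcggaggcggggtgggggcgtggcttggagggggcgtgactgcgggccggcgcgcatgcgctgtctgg
The 4 motifs, searched on both strands, were the E-box CACGTG, which MYC with its partner MAX binds, the antioxidant response element TGACNNNGC, which NRF1 and NRF2 bind, the CCAAT box and the ETS site CCGGAAG. Both promoters hold 1 ETS site, from -26 to -20 in Psmd2, read on the minus strand of the window, and from -69 to -63 in Psmg1, counted from the start at 0. Among the 42 promoter entries of members, 17 (40.5%) held the ETS site, beside 8.86% of the 32851 promoters in the table. Those promoters include genes that were not tested here. No share was taken over tested genes of similar signal, so the excess cannot be called particular to proteasome genes. The E-box stood in 4 entries (9.52%, beside 7.15%), those of Psma4, Psmd9, Psme3 and Psme3ip1. The antioxidant response element stood in 6 (14.3%, beside 12.4%) and the CCAAT box in 15 (35.7%, beside 37.4%). A match is a run of letters and not a shown binding site.

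The immunoproteasome subunits, left out of the members, did not pass either. Psmb8, the counterpart of Psmb5, read 12.37, 12.39 and 12.49 in KO mice, against 12.98, 12.69 and 12.60 in WT mice, lower in each KO mouse than in any WT mouse, at -0.34 ± 0.14 (SE, adjusted p = 0.0853). It passed in 4 of 14 alternative settings. A second, dimmer Psmb8 probe read 9.49, 9.50 and 9.53 in KO mice, against 9.92, 9.66 and 9.40 in WT mice. There the groups overlapped, at -0.15 ± 0.16 when fitted probe by probe. The brighter probe stands for Psmb8 in the comparison with Psmb5. Psmb9, the counterpart of Psmb6, was at -0.13 ± 0.17 and Psmb10, the counterpart of Psmb7, at 0.07 ± 0.17. Within each array, the log2 difference of Psmb8 to Psmb5 shifted by -0.29 in KO (exact permutation test, 2-sided, p = 0.1, the smallest that 3 against 3 allows; 0.3 adjusted over the 3 pairs). Psmb9 to Psmb6 shifted by 0.0064 (exact p = 0.9, adjusted 0.9) and Psmb10 to Psmb7 by 0.12 (exact p = 0.7, adjusted 0.9).

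Genes listed as partners of the proteasome, counted together with Psmb8, Psmb9 and Psmb10, gave 3 lower (12.5%) and 0 higher of 24 tested. Over all tested genes, 17.1% were lower and 19.7% higher. The lists held 40 genes, of which 29 have a probe with the listed symbol. The median log2 fold change of the 24 was -0.13. Nln, which encodes a peptidase, read 9.32, 8.93 and 8.79 in KO mice, against 10.18, 9.52 and 10.34 in WT mice, at -1.0 ± 0.23 (SE, adjusted p = 0.0105). Rad23b, which carries ubiquitin-tagged proteins to the cap, read 9.36, 9.16 and 9.06 in KO mice, against 10.07, 9.94 and 10.004 in WT mice, at -0.81 ± 0.13 (adjusted p = 0.00241). Uchl5, a deubiquitinase bound to the cap, read 11.58, 11.85 and 11.62 in KO mice, against 12.14, 12.17 and 12.21 in WT mice, at -0.49 ± 0.13 (adjusted p = 0.0156). In these 3 genes, named because they passed, KO and WT mice did not overlap. Among the 24 tested, groups did not overlap for 6 with lower and 1 with higher values in KO. Over all tested genes, this held for 24.4% and 26.1%. Uchl5 lost its call without KO replicate 3 (-0.46, adjusted p = 0.0514) or WT replicate 3 (-0.48, adjusted p = 0.0540), at differences close to that over all mice.

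Other partners did not pass the test. Pomp, the maturation factor of the core, was at -0.04 ± 0.12 and Sem1, a small subunit of the lid, at -0.01 ± 0.14. Ecpas, which tethers the cap to the core, was at -0.53 ± 0.19 (adjusted p = 0.0541) and Tpp2, a large peptidase, at -0.63 ± 0.22 (adjusted p = 0.055). Ecpas passed in 8 of 14 alternative settings, with adjusted p from 0.0167 to 0.152, and Tpp2 in 6 of 14, with adjusted p from 0.0186 to 0.142. Of the regulators, Nfe2l1, which encodes the factor NRF1 that raises proteasome genes when the protease is inhibited, read 10.21, 10.25 and 10.33 in KO mice, against 9.998, 10.17 and 9.87 in WT mice. Its KO values all lay above its WT values, at 0.25 ± 0.13 (adjusted p = 0.155). Nfe2l2 was at 0.13 ± 0.13 and Keap1, which restrains the Nfe2l2 product, at -0.16 ± 0.13. Of the E1 enzymes Uba6 was at -0.13 ± 0.16, and no gene of ubiquitin itself was analysed here.

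The arrays alone do not give the tissue, and markers of several cell types were detected. Raw medians were 121.8 to 132.4 and 18215 to 19486 probes were detected per array. The marker counts stand beside 17.1% lower and 19.7% higher in KO over all tested genes. Of 11 T cell markers 8 were tested, 3 were lower in KO (Rag1, Ptcra and Dntt) and 0 higher. Cd3e (-0.05), Cd3d (-0.16), Cd3g (0.10), Cd4 (0.07) and Cd8b1 (-0.17) did not pass. The summed log2 level of the 8 was 15.13 to 15.14 in KO and 15.19 to 15.30 in WT. That sum is set mostly by Cd3e, Cd3d, Cd3g and Cd8b1, at group means of 12.90 to 13.62. All 5 tested of 7 macrophage and dendritic markers were higher, at 13.61 to 14.21 in KO and 12.66 to 12.94 in WT. Of 6 fibroblast and endothelial markers 4 were higher, at 11.19 to 11.46 in KO and 10.52 to 10.78 in WT. Of 6 erythroid markers 3 were tested and 1 was higher, at 15.94 to 16.05 in KO and 15.77 to 15.89 in WT. None of the 6 neutrophil markers passed, at 11.70 to 13.67 in KO, lowest in KO replicate 1, and 12.02 to 12.52 in WT. For B cells 1 of 5 markers was tested, at 7.62 to 9.76 in KO and 7.82 to 8.75 in WT. Of 8 markers of thymic cortical epithelium 3 were tested and 1, Ccl25, was lower, at 8.30 to 8.44 in KO and 8.74 to 8.87 in WT, while Psmb11, Foxn1, Prss16, Krt18 and Dll4 did not pass the filter. The part of these markers in the proteasome values was not tested.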

How the data were processed

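Of the deposited files, the raw one gives an intensity and a detection p-value per probe and array, without normalization per its file headers. The deposited log2 values differ from quantile-normalised log2 raw intensities by at most 5e-05 (median 7.01). The sources used here do not name the scanner software. No column was set aside. Intensities were processed by neqc of limma 3.58.1 (R 4.3.3), in which detection p-values set the background, followed by quantile normalization and log2 with an offset of 16. Probes with a detection p under 0.05 on at least 3 arrays were kept. The platform annotation pairs 34885 probes with 1 symbol, 18 with several and 10378 with none. A gene was represented by its brightest kept probe. lmFit and eBayes compared the groups over 10209 genes, 2-sided and with no covariate, and p-values were adjusted by Benjamini-Hochberg. Precision is limited by there being 3 arrays per group.

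The fit was run on simulated data with independent noise and few changed genes. These settings differ from the arrays here, so that run does not bear on the calls reported. Every member was named. Of each partner list, up to 4 called genes with the largest change were named, or up to 3 with the smallest p where none passed, and Pomp, Sem1, Ecpas and Tpp2 were added after their values were seen. Members and lists were chosen with earlier results of these data known. Alternatives changed the background correction, scaling, filter, probe choice, class assignment and variance model, used the deposited log2 values or a replicate block, or left out single arrays. Figures used matplotlib 3.10.9.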

Additional observations from a re-analysis of the deposited data

How the results depend on the processing

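No value of a member or partner that passed changed direction. Members lower in KO numbered 7 (17.9%) with no background correction and with the deposited log2 table, where 18.2% of all tested genes were lower. With no filter on dim probes, 4 of 46 were lower (8.7%, beside 8.51%), again near the share of all genes. They numbered 4 when arrays were scaled to a common median (10.3%, beside 17.6%) or probes averaged (10.3%, beside 18.1%). With detection on all 6 arrays they numbered 3 (7.69%, beside 18.6%). They numbered 5 with trend and robust eBayes (12.8%, beside 18.4%), and 1 to 5 with single arrays left out (2.56% to 12.8%, beside 11.0% to 18.4%). Members higher in KO numbered 0 to 1 with single arrays left out, the 1 being Psmd9 without KO replicate 1 (2.56%, beside 20.2%). Partner genes, counted with Psmb8, Psmb9 and Psmb10, were lower in 6 of 24 with no background correction and with the deposited log2 table, beside 18.2% of all tested genes. Psmb8 was among those 6. The count was 6 with trend and robust eBayes (beside 18.4%), 5 with detection on all 6 arrays (beside 18.6%), and 2 to 5 with single arrays left out (beside 11.0% to 18.4%). Over all tested genes, 1108 to 1835 were lower and 1347 to 2014 higher with single arrays left out, the fewest lower ones without WT replicate 3 (1108) or WT replicate 1 (1120).

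Scaling to a common median gave medians of -0.29 for the core, -0.26 for the cap, -0.15 for assembly genes and 0.00168 for activators, beside a shift of -0.05 over all tested genes. The assembly median, -0.03 in the analysis as reported, was -0.29 with Psmd5, Psmd9 and Psmd10 counted with the cap and -0.13 with no filter on dim probes, and the activator median was 0.0396 when probes of a gene were averaged. With single arrays left out, the assembly median ran from -0.071 to -0.000835, the cap median ran from -0.142 to -0.0425 and the activator median from 0.0193 to 0.122. The cause of these changes was not tested.

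With a replicate block, 4 members (10.3%) and 5 partner genes were lower in KO, beside 16.6% of all tested genes. Deviations of same-numbered mice from their group means correlated at 0.17, 0.12 and -0.08, so the numbers were not taken as pairs, and not every mouse correlated best with its own number. Dim probes limit Psmd2, Psmc6 and the members that were not detected, and 3 mice per group limit all tests.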
